A study of Mus musculus with 6 samples.

Results

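Collagen genes were examined on 6 expression arrays of adult mouse tissue, 3 of lumbar dorsal root ganglia (DRG) and 3 of lumbar spinal cord (SC). The members were all probe sets whose platform annotation names a single gene with a symbol of the form Col, a number, a and a number. This rule used no measured value and found 82 probe sets of 42 genes, among 45028 probe sets and 18190 genes tested. The labels name no treatment, allele or agent in either group, and both came from male C57BL/6J mice of 3 months. Each array measured total RNA from a pool of 4 mice, and a DRG pool joined the ganglia of both sides, so the spread between arrays is a spread between pools and not between animals. The labels call the 3 pools of a tissue independent.

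Collagens are secreted or membrane proteins whose chains wind in groups of 3 into a triple helix, built on regularly spaced glycines. Fibrillar collagens form the banded fibres of connective tissue, type IV collagens form the sheet-like network of basement membranes, and further families decorate fibrils, make beaded filaments or span the cell membrane. In a ganglion and its nerve roots, collagen surrounds axons, Schwann cells and the perineurial sheath, while the spinal cord holds fibrillar collagen mainly in its meninges and vessel walls and basement membrane along vessels and at the glial surface.

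Both tissues carried their own defining markers. All 6 sensory neuron genes measured were higher in DRG, with a summed signal of 22557 to 23693 there against 552 to 684 in SC. All 7 spinal cord genes measured were higher in SC, with 21928 to 24283 against 396 to 473 in DRG. Signals are linear MAS5 signals recovered from the deposited ratios and kept on the deposited array scaling. A background level was read on each array as the 95th percentile of 52 probe sets of 37 genes not expected in ganglion or cord, such as genes of liver, pancreas, testis and gut. It lay between 93.9 and 117 on the 6 arrays. Where all 3 arrays of the dimmer tissue lay at or below that level, the fold is a lower bound against it, and none is given where this held for both tissues. Differences are DRG minus SC on log2(signal + 16), and a call is an adjusted p under 0.05 in limma over all probe sets. This scaling placed the median of all genes at 0.18, where quantile-normalized signals placed it at 0.04 and signals before the deposited array scaling at −0.10.

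Most called collagen genes were higher in DRG, and a small set was higher in SC. Called genes of any kind also lay mostly toward DRG with this scaling, 5783 against 1763 toward SC. With each gene read from its probe set of highest mean signal, 19 of 42 genes (45.2%) were called toward DRG by limma, where 31.8% of all genes were. Another 5 (11.9%) were higher in SC, where 9.69% of all genes were, and 18 were not called. A log2 difference of at least 1 was found for 14 genes (33.3%) toward DRG and 2 (4.76%) toward SC, against 11.5% and 4.78% of all genes. The median difference was 0.45. The 2 tissues did not overlap for 24 genes (57.1%), as for 51.7% of all genes. Over all 82 probe sets, 30 were called toward DRG and 7 toward SC, against 22.7% and 9.79% of all probe sets. Quantile-normalized signals gave 16 collagen genes toward DRG and 5 toward SC (median 0.28), and signals before the array scaling gave 16 and 7 (median 0.18). Of all genes, 20.5% and 16% were called toward DRG and SC in the first case and 19.3% and 19.7% in the second, so the collagen share toward SC was above that of all genes only with the deposited scaling among these 3. In bulk tissue, fewer cells of a type and less RNA per cell cannot be told apart.

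**Figure D1:**
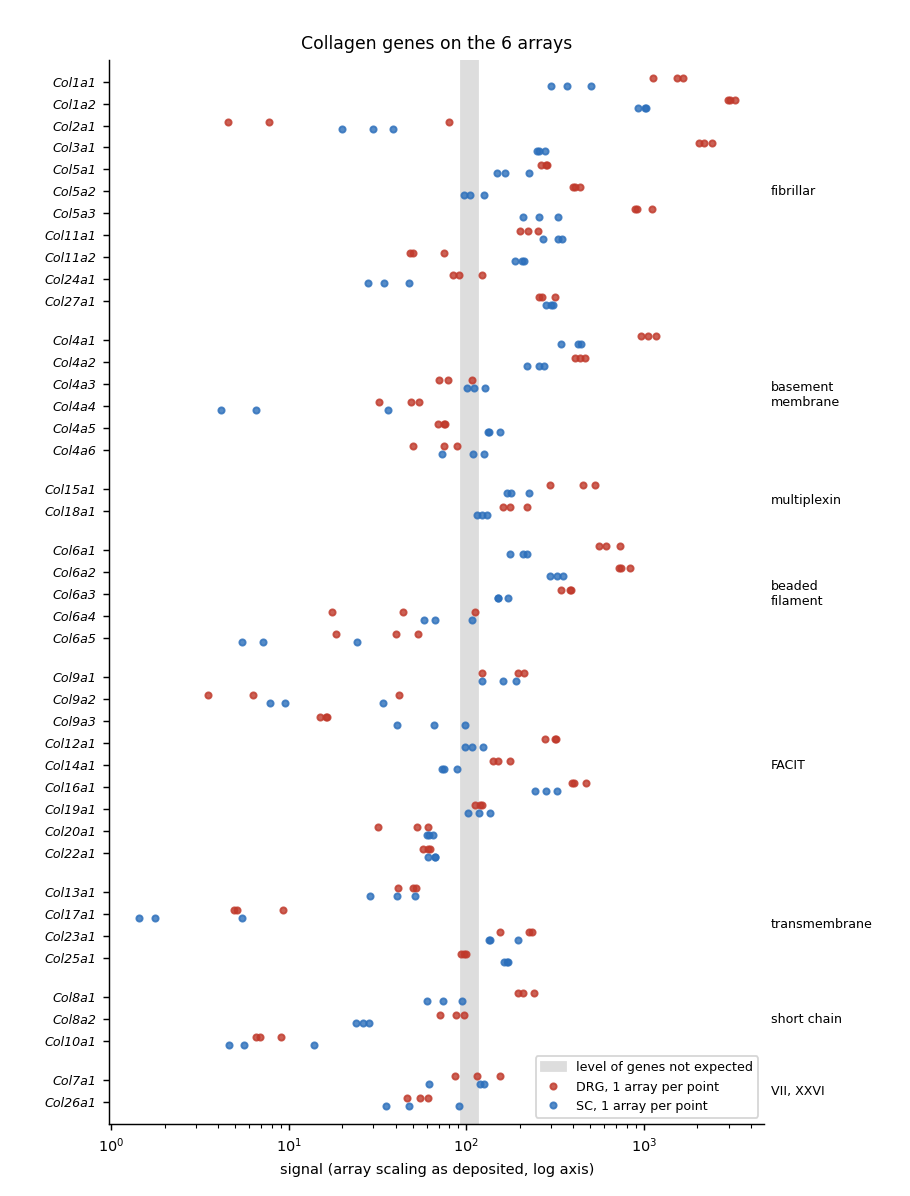
Signals of the 42 collagen genes on the 6 arrays, with a log axis. Each point is 1 array, red for DRG and blue for SC, each gene is shown by its brightest probe set, and the grey band, level of genes not expected, spans the background level of 93.9 to 117. The red and blue points of Col1a1, Col1a2, Col3a1, Col5a2 and Col5a3 lie apart with DRG to the right, while those of Col11a2, Col4a5 and Col25a1 lie apart with SC to the right.

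The fibrillar class held the largest difference. Of its 11 genes, 7 were higher in DRG, 2 were higher in SC and 2 were not called, and the median was 1.13. These are 63.6% toward DRG and 18.2% toward SC, against 31.8% and 9.69% of all genes. Col3a1, the single chain of type III collagen of elastic connective tissue, had signals of 2045, 2421 and 2184 in DRG against 278, 257 and 250.02 in SC. The groups do not overlap, and the means of 2217 ± 190.1 and 262 ± 14.6 (SD, n = 3 each) gave a log2 difference of 3.00 ± 0.09 (SE, limma adjusted p = 2.31e-08), an 8.46-fold ratio.

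The 2 chains of type I collagen, the main fibril of dense connective tissue, were also higher in DRG. Col1a2 stood at 2972, 3064 and 3246 in DRG and at 1025, 933 and 1019 in SC, with a difference of 1.63 ± 0.07 (limma adjusted p = 2.47e-07). Col1a1 stood at 1651, 1127 and 1533 against 369, 302 and 507, a difference of 1.84 ± 0.19 (limma adjusted p = 5.58e-05). Neither gene overlapped between tissues, and Col1a1 varied more between pools of one tissue than Col1a2 did.

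Type V collagen, which is built into type I fibrils and limits their diameter, differed by chain. Col5a3, a chain known from peripheral nerve and Schwann cells, had 914, 891 and 1117 in DRG against 328, 258 and 209 in SC, a difference of 1.83 ± 0.15 (limma adjusted p = 1.47e-05). Col5a2 had 434, 411 and 401 against 97.1, 126 and 105, a difference of 1.79 ± 0.13 (limma adjusted p = 4.77e-06). Both were about equally far apart between the tissues. Col5a1, the chain found in most type V molecules, had 279.7, 283 and 263 against 165, 226 and 149, and its difference of 0.59 ± 0.15 (limma adjusted p = 0.0155) was smaller. That call was lost after quantile normalization (0.43, limma adjusted p = 0.0807), before the array scaling (0.24, limma adjusted p = 0.276), on the log2 deposited ratio itself (limma adjusted p = 0.0554), without SC replicate 1 (limma adjusted p = 0.0561) and without SC replicate 3 (limma adjusted p = 0.0551). Another Col5a1 probe set, with means of 231 in DRG and 118 in SC, was called higher in DRG at 0.89 (limma adjusted p = 0.00277). It kept the call after quantile normalization (0.80, limma adjusted p = 0.00634) and before the array scaling (0.55, limma adjusted p = 0.0296). The remaining one, above the background level on no array, was not called (1.19, limma adjusted p = 0.0749).

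The chains of type XI collagen, the fibril-forming relative of type V known from cartilage, were higher in SC. Col11a2 had 212, 188 and 206 in SC and 48.0, 50.3 and 74.5 in DRG, where no array was above the background level. The arrays do not overlap, and the gene was at least 1.86-fold higher in SC, with a difference of −1.58 ± 0.20 (limma adjusted p = 0.000188). Col11a1 was above that level on every array, with 345, 270 and 326 in SC against 252, 223 and 201 in DRG. Its difference was −0.45 ± 0.13 (limma adjusted p = 0.0267), or −0.80 before the array scaling (limma adjusted p = 0.00121). This call was lost on averaging its probe sets (−0.15, limma adjusted p = 0.332), on the log2 deposited ratio itself (limma adjusted p = 0.0596), without the intensity trend (limma adjusted p = 0.0639) and on leaving out DRG replicate 2 (limma adjusted p = 0.0566), DRG replicate 3 (limma adjusted p = 0.0879), SC replicate 1 (limma adjusted p = 0.105) or SC replicate 3 (limma adjusted p = 0.0882).

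The other fibrillar genes were dim in SC or not called. Col24a1 had 90.6, 83.8 and 122 in DRG and 47.5, 28.1 and 34.3 in SC, and was called higher in DRG with a difference of 1.13 ± 0.26 (limma adjusted p = 0.00750), though only 1 DRG array was above the background level. Col27a1 had 268, 256 and 314 in DRG against 279, 300.1 and 309 in SC. Its difference was −0.08, with a 95% interval from −0.33 to 0.17, and before the array scaling it was called higher in SC at −0.44 (limma adjusted p = 0.0112). Col2a1, the cartilage collagen, was at or under the background level on all 6 arrays, with 80.01 on DRG replicate 3 and 4.55 and 7.74 on the other DRG arrays. Without DRG replicate 3 it was called higher in SC, at −1.02 (limma adjusted p = 0.0246), still with no tissue above that level.

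**Figure D2:**
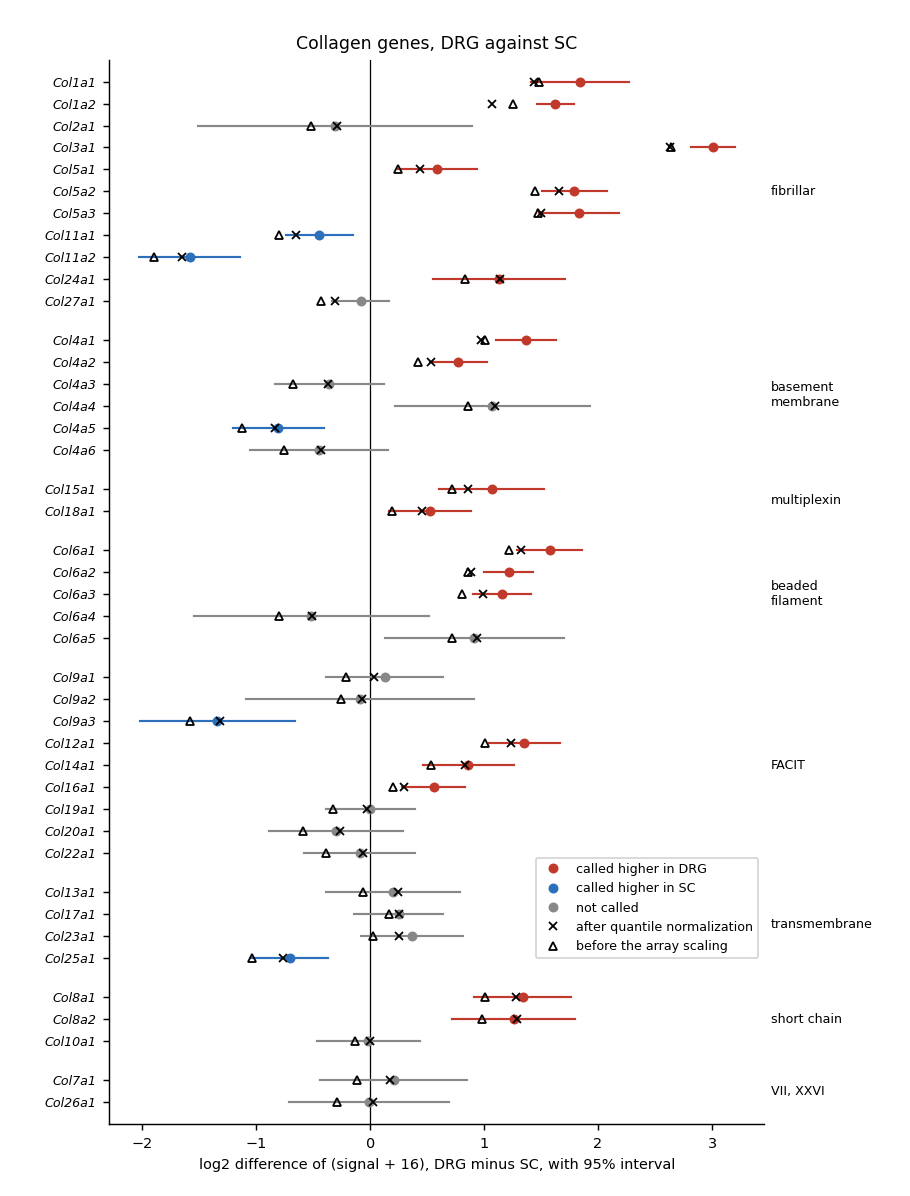
Log2 differences of (signal + 16), DRG minus SC, for the 42 collagen genes by class, with 95% intervals from limma. Red marks genes called higher in DRG, blue those called higher in SC and grey those not called, and crosses and triangles give the value from quantile-normalized signals and from signals before the array scaling. Col3a1 at 3.00 lies farthest to the right and Col11a2 at −1.58 farthest to the left, and the triangles lie to the left of the points throughout.

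Starts of fibrillar genes of both directions are shown because these genes moved apart between the tissues within 1 class. The windows are the 250 bases before the gene start on the plus strand of GRCm38.p6, from RefSeq, and capitals mark the CCAAT box, the TATAAA box and the GC box GGGCGG on either strand. Col3a1 lies at chr1:45311288-45311537, Col1a2 at chr6:4505368-4505617 and Col11a2 at chr17:34038888-34039137.
Col3a1: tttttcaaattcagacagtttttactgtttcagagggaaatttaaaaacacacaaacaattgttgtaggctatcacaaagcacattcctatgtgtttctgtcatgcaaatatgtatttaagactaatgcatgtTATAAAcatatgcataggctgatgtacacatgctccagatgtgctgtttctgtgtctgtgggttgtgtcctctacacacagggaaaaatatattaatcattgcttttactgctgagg
Col1a2: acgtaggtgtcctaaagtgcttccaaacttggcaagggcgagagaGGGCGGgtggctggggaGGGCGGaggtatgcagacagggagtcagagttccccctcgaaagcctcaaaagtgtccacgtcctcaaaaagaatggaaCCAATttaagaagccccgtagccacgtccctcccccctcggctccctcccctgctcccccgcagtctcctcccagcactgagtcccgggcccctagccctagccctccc
Col11a2: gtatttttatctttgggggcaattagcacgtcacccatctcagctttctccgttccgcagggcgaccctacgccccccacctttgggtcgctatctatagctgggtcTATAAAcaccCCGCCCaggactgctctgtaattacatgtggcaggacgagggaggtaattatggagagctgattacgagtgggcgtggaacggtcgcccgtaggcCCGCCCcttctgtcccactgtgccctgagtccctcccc
The window of Col3a1 held 1 TATAAA and neither other motif. That of Col1a2 held 2 GGGCGG and 1 CCAAT, and that of Col11a2 held 2 GGGCGG and 1 TATAAA.

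Over all members, 36 windows of 300 bases, reaching 50 bases past the start, matched 33 of the 42 genes. GGGCGG was found in 22 of them (61.1%), against 35.7% of 32851 windows of all genes. CCAAT was found in 13 (36.1%) against 37.4%, and TATAAA in 5 (13.9%) against 13.6%. GGGCGG was in 11 of 17 windows of genes called higher in DRG, in 4 of 4 of genes called higher in SC and in 7 of 15 of genes not called. These are counts of letters in the windows, and factor binding was not measured.

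Basement membrane collagens had chains called in each direction. Of the 6 type IV genes, 2 were higher in DRG, 1 was higher in SC and 3 were not called, and the median was 0.21. These are 33.3% and 16.7% of the class, against 31.8% and 9.69% of all genes, so the class as a whole was near the background toward DRG. Col4a1 and Col4a2 encode the alpha-1 and alpha-2 chains that make up the type IV network of nearly all basement membranes. Col4a1 had 1178, 1050 and 964 in DRG and 426, 341 and 445 in SC, a difference of 1.37 ± 0.12 (limma adjusted p = 1.56e-05). Col4a2 had 467, 439 and 411 against 221, 275 and 256, a difference of 0.77 ± 0.11 (limma adjusted p = 0.000421), or 0.42 before the array scaling (limma adjusted p = 0.0177). All DRG arrays were above all SC arrays for both. These genes lie head to head, and their promoter windows share 78 bases.

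Col4a5, a chain of the type IV molecules of specialised basement membranes, went the other way. Its signals were 155, 133 and 134 in SC and 69.5, 75.0 and 75.4 in DRG, where no array was above the background level. It was at least 1.29-fold higher in SC, with a difference of −0.81 ± 0.18 (limma adjusted p = 0.00603), and its other probe set was called the same way at −0.92. The 250 bases before its start, at chrX:141475169-141475418 on the plus strand, are given because it alone of the class was higher in SC, with capitals for the same motifs.
Col4a5: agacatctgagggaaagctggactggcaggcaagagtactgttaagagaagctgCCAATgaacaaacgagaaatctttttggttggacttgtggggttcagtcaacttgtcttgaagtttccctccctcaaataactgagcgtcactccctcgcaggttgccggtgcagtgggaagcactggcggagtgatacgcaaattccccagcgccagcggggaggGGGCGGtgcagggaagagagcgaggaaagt
This window held 1 CCAAT and 1 GGGCGG. The windows of Col4a5 and of its neighbour Col4a6, which runs the opposite way, lie 842 bases apart.

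The other type IV chains were not called. Col4a6 had 126, 109.6 and 72.8 in SC against 75.1, 88.3 and 49.8 in DRG, and the tissues overlapped. Col4a3 had a difference of −0.36 with a 95% interval from −0.84 to 0.12, and before the array scaling it was called higher in SC at −0.68 (limma adjusted p = 0.0331). Col4a4 was under the background level on every array, with a difference of 1.07 (limma adjusted p = 0.0580). It was called higher in DRG without SC replicate 2 (1.502, limma adjusted p = 0.00504), on averaging its probe sets (0.54, limma adjusted p = 0.0433) and with 1 probe set per gene in the fit (limma adjusted p = 0.0424).

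Multiplexins, which sit at basement membranes and carry cleavable end domains such as endostatin, were higher in DRG in both cases. This is 100% of 2 genes, against 31.8% of all genes. Col15a1 had 454, 532 and 294 in DRG and 169, 179.6 and 225 in SC, a difference of 1.07 ± 0.20 (limma adjusted p = 0.00272). DRG replicate 3 was lower than the other DRG arrays but above every SC array. Col18a1 had 160.2, 219 and 175 against 115, 130.2 and 123, a difference of 0.52 ± 0.16 (limma adjusted p = 0.0318). That call was lost before the array scaling (0.19, limma adjusted p = 0.434), after quantile normalization (0.46, limma adjusted p = 0.0686) and on leaving out DRG replicate 2 (limma adjusted p = 0.0981), DRG replicate 3 (limma adjusted p = 0.0621), SC replicate 1 (limma adjusted p = 0.0920), SC replicate 2 (limma adjusted p = 0.0610) or SC replicate 3 (limma adjusted p = 0.0745). The other Col18a1 probe set, above the background level on all arrays, was not called (0.27, limma adjusted p = 0.239). It stood at −0.06 before the array scaling.

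Type VI collagen, whose 3 classical chains assemble into beaded filaments around cells and nerve fibres, was higher in DRG in all of these chains. Col6a1 had 560.4, 609 and 733 in DRG and 220.2, 210 and 176 in SC, a difference of 1.57 ± 0.13 (limma adjusted p = 1.12e-05). Col6a2 had 728, 742 and 837 against 295, 348 and 323, a difference of 1.22 ± 0.09 (limma adjusted p = 9.06e-06). Col6a3 had 340.4, 389 and 384 against 172, 151 and 150.2, a difference of 1.16 ± 0.11 (limma adjusted p = 4.02e-05). For each of the 3 chains every DRG array was above every SC array. The brightest probe set of Col6a2 has a suffix that marks matches to more than 1 transcript, and its other probe set differed by 1.56. The later members Col6a4 and Col6a5 were at or under the background level on every array and were not called. Of the 5 type VI genes measured, 60% were called toward DRG and 0% toward SC, against 31.8% and 9.69% of all genes. Col6a5 differed by 0.91 (limma adjusted p = 0.0762), and was called higher in DRG without DRG replicate 3 (1.201, limma adjusted p = 0.0315) and without SC replicate 2 (1.199, limma adjusted p = 0.0334).

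The FACIT collagens, which lie on the surface of fibrils and have interrupted helices, had members called in each direction. Of 9 genes, 3 were called toward DRG and 1 toward SC, and the median was 0.00. These shares of 33.3% and 11.1% were near those of all genes, 31.8% and 9.69%. Col12a1, of dense connective tissue, had 276, 322 and 317 in DRG against 98.2, 107 and 125 in SC, a difference of 1.35 ± 0.14 (limma adjusted p = 5.17e-05), or 0.56 when its 4 probe sets were averaged (limma adjusted p = 0.0877). Col14a1 differed by 0.86 ± 0.18 (limma adjusted p = 0.00432) and was at least 1.53-fold higher in DRG. Col16a1 differed by 0.56 ± 0.12 (limma adjusted p = 0.00636), and its call was lost after quantile normalization (0.30, limma adjusted p = 0.113) and before the array scaling (0.20, limma adjusted p = 0.238).

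Col9a3, a chain of type IX collagen, which coats type II fibrils of cartilage, was the FACIT gene higher in SC. It had 65.4, 40.4 and 98.7 in SC and 16.2, 16.4 and 14.99 in DRG, a difference of −1.34 ± 0.30 (limma adjusted p = 0.00682). It stayed under the background level on all arrays, so no fold is given. Of its 3 probe sets, 2 were called higher in SC. The partner chains Col9a1 and Col9a2 were not called, with differences of 0.13 (95% interval from −0.38 to 0.64) and −0.09 (−1.09 to 0.91). The other probe set of Col9a1, above the background level on no array, differed by −0.88 (95% interval from −1.60 to −0.16, limma adjusted p = 0.0628), with no overlap between tissues. Col19a1, Col20a1 and Col22a1 were not called either.

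Transmembrane collagens, single-pass proteins with an extracellular helix, differed in 1 of 4 cases. This was 25% toward SC and 0% toward DRG, against 9.69% and 31.8% of all genes. Col25a1, a neuronal collagen whose shed part binds amyloid, had 173, 168 and 164 in SC and 99.9, 97.1 and 93.8 in DRG. The pools of a tissue were close together and the tissues apart, and the gene was at least 1.55-fold higher in SC, with a difference of −0.71 ± 0.15 (limma adjusted p = 0.00496). Its other probe set differed by −0.64 and was not called (limma adjusted p = 0.227). Col23a1 was above the background level on all arrays and differed by 0.37, with a 95% interval from −0.08 to 0.82. Col13a1 and Col17a1 were under that level.

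Type VIII collagen, a short chain network of vessel walls and the endothelial side of the cornea, was higher in DRG in both its chains. Col8a1 had 197, 241 and 209 in DRG and 73.9, 60.3 and 94.7 in SC, a difference of 1.34 ± 0.19 (limma adjusted p = 0.000409), and was at least 2.11-fold higher. All 3 of its probe sets were called. Col8a2 had 71.5, 87.7 and 97.5 against 26.3, 24.0 and 28.5, a difference of 1.26 ± 0.24 (limma adjusted p = 0.00263), and was under the background level on every array. Col10a1, Col7a1 and Col26a1 were not called. With Col10a1, 66.7% of the 3 short chain genes were called toward DRG and 0% toward SC, against 31.8% and 9.69% of all genes.

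Called collagen genes were mostly those of higher signal, and calls of all genes were not counted by level. On all arrays of both tissues 18 genes were above the background level, of which 14 were higher in DRG, 1 in SC and 3 not called. A further 3 genes were above it on all DRG arrays alone, all called higher in DRG, and 4 on all SC arrays alone, of which 3 were called higher in SC. The remaining 17 genes met this in neither tissue, and 14 of them were not called. Above the level on all arrays of at least 1 tissue were 25 of the 42 collagen genes and 11196 of all 18190 genes. No collagen probe set stood at the lowest deposited value on any array.

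Probe sets of one gene are not independent, and their differences varied in size and, in some genes, in sign. Both signs occurred in Col4a3, Col5a3, Col6a4, Col9a1, Col11a1, Col19a1, Col20a1 and Col27a1. Of 27 genes with several probe sets, 8 had all of them called in one direction, 11 had none called and 8 had some called, and in 0 cases were probe sets of a gene called in opposite directions. The probe sets of Col3a1 differed by 1.89 and 3.00, those of Col1a1 by 1.09 and 1.84 and those of Col4a1 by 0.70 and 1.37. In these 3 genes the dimmer probe set gave the smaller difference. The second probe set of Col5a3 was near the bottom of the range and differed by −0.03, against 1.83 for the bright one. The second one of Col11a1 differed by 0.14 and was not called (limma adjusted p = 0.561).

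**Figure D3:**
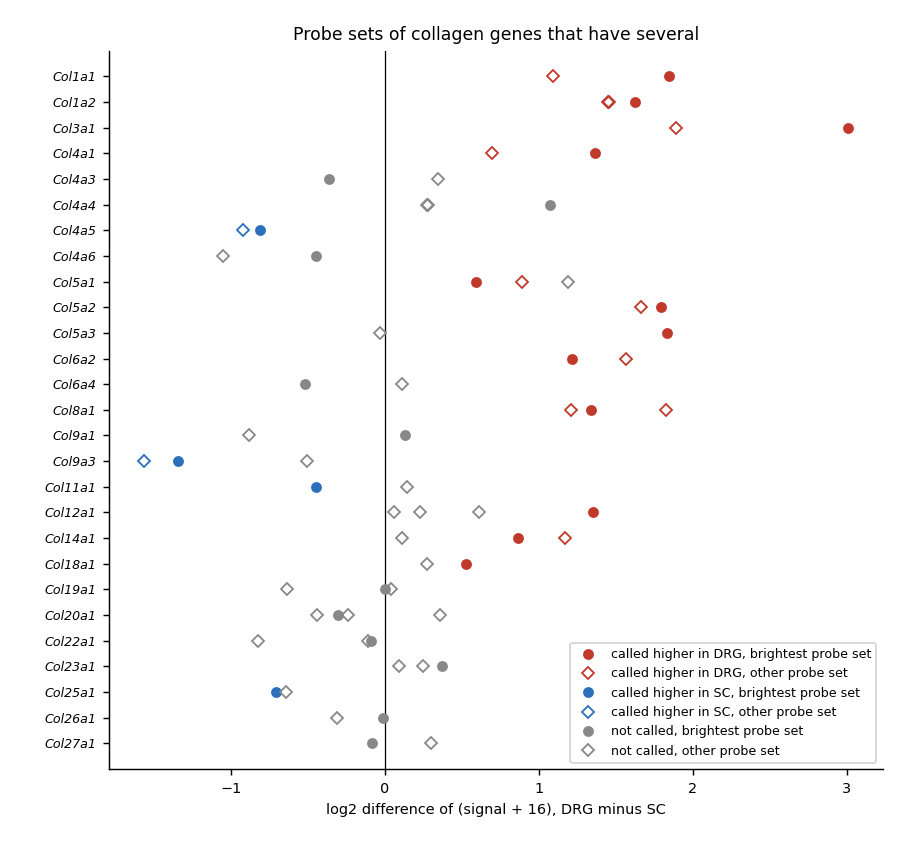
Log2 differences of (signal + 16), DRG minus SC, for each probe set of the 27 collagen genes that have several. Filled points are the brightest probe set of a gene and open diamonds the others, red for a call toward DRG, blue for one toward SC and grey for none. No row holds both red and blue, and the rows of Col1a2 and Col5a2 are tight while those of Col3a1, Col5a3 and Col12a1 are wide.

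In a ratio between chains within an array, a factor of the array cancels except for the 16 added to each signal, and before the array scaling the differences of the 12 pairs compared moved by at most 0.053. The level of such a ratio depends on the probes, so only its difference between tissues can be read. That difference holds for the brightest probe set of each gene and can change with another one. The log2 ratio of Col11a1 to Col5a1 was lower in DRG, with a difference of −1.04. Col3a1 rose over Col1a2 by 1.38, Col5a2 over Col5a1 by 1.202 and Col5a3 over Col5a1 by 1.24 in DRG. The sizes of these rises change with the probe set. Another Col5a1 probe set differed by 0.89 in place of 0.59, and the dimmer one of Col3a1 by 1.89 in place of 3.00. Both make the rises smaller. The other Col1a2 probe sets differed by 1.45 in place of 1.63, which makes the rise of Col3a1 over Col1a2 larger. Col4a5 over Col4a1, Col4a5 over Col4a2 and Col11a2 over Col5a1 were also lower in DRG, but Col4a5 and Col11a2 were above the background level on no DRG array, so the sizes of these 3 differences cannot be read.

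For 2 pairs the arrays of the tissues overlapped. The ratio of Col1a1 to Col1a2 differed by 0.22 (two-sided exact permutation p = 0.400, adjusted p = 0.436 over the 12 pairs), and that of Col8a1 to Col8a2 by 0.08 (exact permutation p = 0.700, adjusted p = 0.700), with Col8a2 above the background level on no array. For the other 10 pairs the arrays of the tissues did not overlap. This gives an exact permutation p of 0.1, the smallest that 3 against 3 arrays allow, and an adjusted p of 0.12. In Col11a1 or Col11a2 over Col5a1 and Col4a5 over Col4a1 or Col4a2, the first chain was higher in SC and the second in DRG. Neither chain overlapped between tissues there, so the ratios could not overlap either. How often other gene pairs lie apart was not computed. In 7 of these 10 pairs no chain lay at background throughout a tissue. Among the 7 were Col4a1 over Col4a2, at 0.59, and the type VI pairs Col6a1 over Col6a2, at 0.36, and Col6a3 over Col6a1, at −0.42. The values of Col4a1 over Col4a2 and of Col6a1 over Col6a2 depend on the probe set. The other Col4a1 probe set differed between tissues by 0.70, against 0.77 for Col4a2. The other Col6a2 probe set differed by 1.56, against 1.57 for Col6a1.

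**Figure D4:**
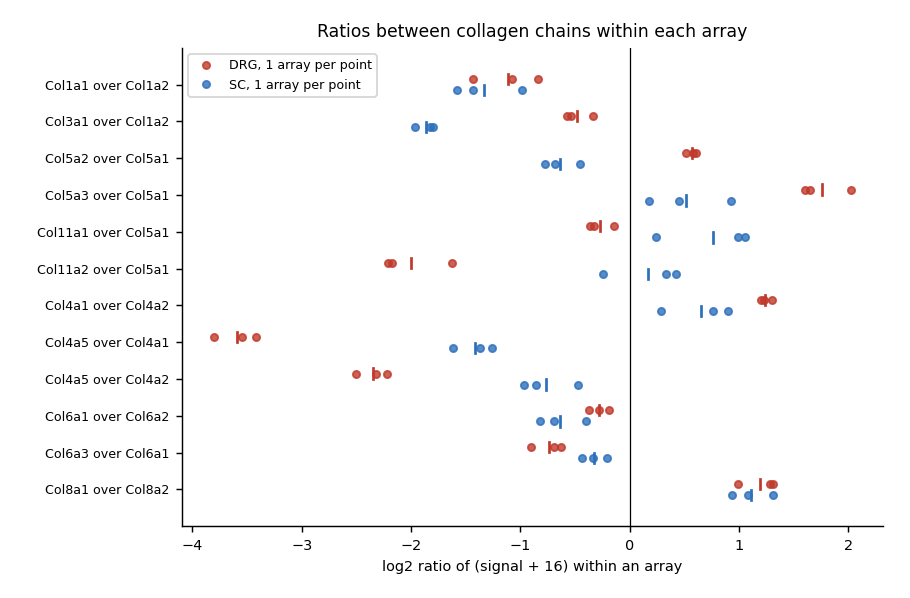
Log2 ratios of (signal + 16) between pairs of collagen genes within each array, each gene read from its brightest probe set. Points are arrays, red for DRG and blue for SC, and vertical ticks are the means of the 3 arrays. The tissues lie apart in 10 of the 12 pairs, 3 of them with Col4a5 or Col11a2, which were at background in DRG, and overlap for Col1a1 over Col1a2 and Col8a1 over Col8a2.

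Position gave 7 pairs of collagen genes that neighbour each other among protein-coding genes of GRCm38.p6. In 3 pairs both genes were called higher in DRG, namely Col3a1 with Col5a2, Col6a2 with Col6a1 and Col4a1 with Col4a2. In the pairs Col9a1 with Col19a1, Col4a4 with Col4a3 and Col6a5 with Col6a4 neither gene was called. In the last pair Col4a5 was called higher in SC, at −0.81, while Col4a6 was not, at −0.45.

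Genes that make, process and bind collagen were also mostly higher in DRG. Of 39 measured genes of 44 listed, 20 were called toward DRG and 5 toward SC, and the median was 0.57. These are 51.3% and 12.8%, against 31.8% and 9.69% of all genes. Quantile-normalized signals gave 16 and 5 (median 0.36), and signals before the array scaling 16 and 7 (median 0.23), where all genes gave the shares stated above for these settings. The 5 toward SC were P3h4, P3h3, Plod1, Sparc and Ddr1. Leaving out 1 array gave 3 toward SC without any one of DRG replicates 1, 2 and 3, SC replicate 1 and SC replicate 3, and 4 without SC replicate 2. Of the 5, only P3h4, Plod1 and Ddr1 kept their call on leaving out any 1 array.

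Enzymes that modify the chains in the endoplasmic reticulum were called toward DRG in 7 of 14 cases and toward SC in 3. These are 50% and 21.4%, against 31.8% and 9.69% of all genes. Toward DRG the count was 4 with quantile-normalized signals, where P4hb (0.02, limma adjusted p = 0.846), Plod3 (0.18, limma adjusted p = 0.0715) and P4ha1 (0.15, limma adjusted p = 0.315) lost the call, and 5 before the array scaling. Colgalt2, which adds galactose to hydroxylysine, had means of 348 ± 23.5 in DRG and 86.8 ± 10.6 in SC (SD, n = 3 each) and was at least 3.42-fold higher in DRG. Crtap, part of the prolyl 3-hydroxylase complex, differed by 1.45 ± 0.09 (limma adjusted p = 2.46e-06). P4ha2, a prolyl 4-hydroxylase subunit, differed by 0.96 (limma adjusted p = 0.0128), or 0.63 before the array scaling (limma adjusted p = 0.0849), and its call was lost on the log2 deposited ratio itself (limma adjusted p = 0.0577). Toward SC were P3h4 at −0.75 (limma adjusted p = 0.00158), the lysyl hydroxylase Plod1 at −0.54 (limma adjusted p = 0.00231) and P3h3 at −0.48 (limma adjusted p = 0.0444). Plod1 was not called when its probe sets were averaged (−0.41, limma adjusted p = 0.239).

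Folding and export genes were higher in DRG in 6 of 7 cases. The count was 6 before the array scaling and 5 with quantile-normalized signals, where Mia3 lost the call (0.04, limma adjusted p = 0.699). Their shares of 85.7% toward DRG and 14.3% toward SC compare with 31.8% and 9.69% of all genes. Serpinh1, the collagen chaperone also called Hsp47, had means of 972 ± 22.4 and 309 ± 18.7 (SD, n = 3 each) and differed by 1.61 ± 0.08 (limma adjusted p = 5.01e-07). Creb3l1, a transcription factor of the secretory stress response that drives type I collagen, differed by 1.44 ± 0.16 (limma adjusted p = 7.84e-05), and the prolyl isomerase Fkbp14 by 1.17 ± 0.12 (limma adjusted p = 4.72e-05), or 0.11 when its probe sets were averaged (limma adjusted p = 0.709). The exception was Sparc, a collagen-binding protein that glia and endothelium also make, at −0.26 (limma adjusted p = 0.0453) and −0.76 after quantile normalization. The call at −0.26 was lost on the log2 deposited ratio itself (limma adjusted p = 0.152) and without the intensity trend (limma adjusted p = 0.161). It was also lost on averaging its probe sets (limma adjusted p = 0.0699) and on leaving out any array but SC replicate 2.

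Outside the cell, Pcolce, which enhances removal of the C-terminal propeptide, had the largest difference of all partner genes. It had means of 842 ± 143.9 in DRG and 136 ± 19.6 in SC (SD, n = 3 each), a difference of 2.49 ± 0.15 (limma adjusted p = 1.43e-06). Its relative Pcolce2 differed by 1.62 ± 0.12 (limma adjusted p = 6.97e-06), and the other 4 genes of propeptide removal were not called. The share called toward DRG, 33.3%, was near the 31.8% of all genes. Of the lysyl oxidases, which crosslink collagen, Lox differed by 1.17 ± 0.18 (limma adjusted p = 0.000781), Loxl4 by 0.80 and Loxl1 by 0.72. The last pair was not called before the array scaling (limma adjusted p = 0.0790 and 0.123), and Loxl1 was not called without DRG replicate 1 (limma adjusted p = 0.0566) or without DRG replicate 3 (limma adjusted p = 0.0601).

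Of 8 collagen receptor genes, 2 were called toward DRG and 1 toward SC. These are 25% and 12.5%, against 31.8% and 9.69% of all genes, and the median was −0.11. Mrc2, an endocytic receptor for collagen fragments, stood at least 2.13-fold higher in DRG, while Ddr2, a receptor kinase for fibrillar collagen, differed by 1.27 ± 0.15 (limma adjusted p = 0.000128). Ddr1, the receptor kinase found in epithelia and oligodendrocytes, had means of 612 ± 111.1 in DRG and 1107 ± 136.8 in SC (SD, n = 3 each), a difference of −0.85 ± 0.14 (limma adjusted p = 0.00110).

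**Figure D5:**
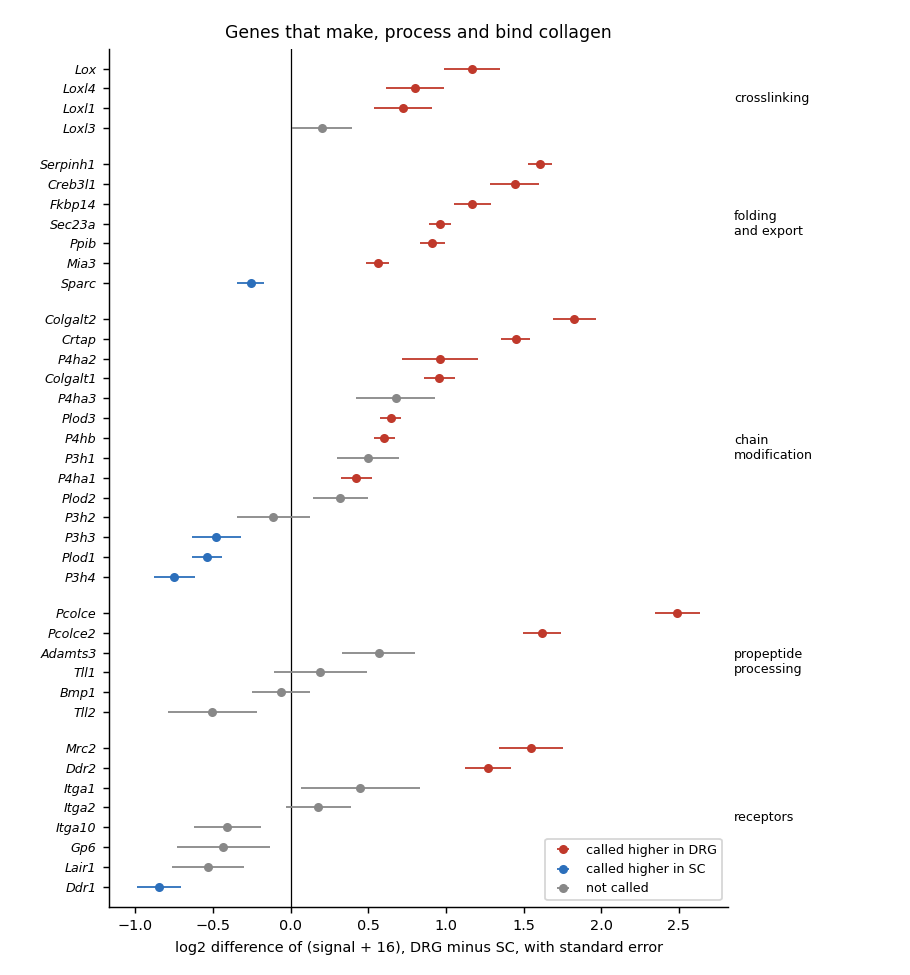
Log2 differences of (signal + 16), DRG minus SC, with standard errors from limma for 39 genes that make, process, crosslink or bind collagen, grouped by role. Red genes were called higher in DRG, blue genes higher in SC and grey genes were not called. Pcolce lies farthest to the right at 2.49 and Ddr1 farthest to the left at −0.85.

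Markers of several cell types that make collagen were called toward DRG more often than the 31.8% of all genes, and their part in the collagen results was not tested. Of 9 fibroblast genes, 5 were called toward DRG and 0 toward SC, with a summed signal of 9887 to 10687 in DRG and 1755 to 1852 in SC. Dcn, at 6878 to 7939 in DRG and with a difference of 3.45, made up most of this sum, while the remaining 4 genes were not called, among them Pdgfra at −0.27, which was called toward SC with quantile-normalized signals and with signals before the array scaling. All 6 Schwann cell genes measured were higher in DRG, with 13184 to 14375 against 3610 to 4302. Pmp22 made up most of both sums, with means of 11009 in DRG and 3274 in SC. Of 5 perineurial genes, 3 were called toward DRG and 1 toward SC, with 2596 to 2695 against 1654 to 1894. Most of this SC sum came from Slc2a1 and Itgb4, with SC means of 1162 and 440. Slc2a1 was called toward SC, at −0.71, and Itgb4 was not called. Moxd1, Cldn1 and Lypd2, the genes called toward DRG, had means of 975, 399 and 108 there and 105, 23.7 and 9.51 in SC. Of 10 leptomeningeal genes, 5 were called toward DRG and 1 toward SC, with 2378 to 2869 against 1253 to 1496. Endothelial genes summed to 2194 to 2463 in DRG and 2075 to 2302 in SC, with a median of 0.09. Of 10, 4 (40%) were called toward DRG and 2 (20%) toward SC, or 1 and 2 after quantile normalization and 0 and 3 before the array scaling. The endothelial share toward DRG was thus above that of all genes only with the deposited scaling among these 3. Genes of pericytes and smooth muscle were called toward DRG in 4 of 8 cases and toward SC in 1, with 4389 to 4560 against 2812 to 2878.

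Of tissues that dissection can bring along, skeletal muscle genes were called in 0 of 8 cases by limma, with 1 of 8 at an unadjusted p under 0.05. Of all genes, 31.8% were called toward DRG and 9.69% toward SC. The summed muscle signal varied between arrays of a tissue, from 533 to 1920 in DRG and from 530 to 2303 in SC. Acta1 had 127, 194 and 562 in DRG and 164, 673 and 882 in SC. Of 11 genes of cartilage and bone, 2 were called toward DRG and 2 toward SC. These are 18.2% each, against 31.8% and 9.69% of all genes, and the median was 0.04. Cnmd differed by 3.38, at least 3.08-fold higher in DRG, and the proteoglycan Acan by −1.37, at least 1.62-fold higher in SC. Whether either tissue carried muscle or cartilage along was not tested. Of the 37 genes not expected, 3 (8.11%) were called toward DRG and 0 toward SC, against the same shares of all genes.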

How the data were processed

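Total RNA of 6 tissue pools was hybridised to 3' arrays holding 45101 probe sets, of which 64 were controls. The submitters' processing notes name MAS5, without a version. The values deposited by the authors are linear ratios, and what lies between MAS5 and these ratios was inferred from the values, since no source states it. In 91.8% of probe sets the median of the 6 ratios was 1. Dim probe sets, 8.21% of all, lay on a regular grid instead, which gave a factor for each array, 84.5 to 89.5 in DRG and 110.5 to 112.6 in SC. MAS5 writes signals in steps of 0.1, so the smallest multiplier placing a probe set's ratios on that grid returned the signals of 45092 probe sets, all collagen probe sets included. On simulated data, 98.5% of 4000 probe sets came back exactly and 1.52% were off by a factor shared by the 6 arrays. The simulation used the same inferred steps and array factors. It therefore tests the recovery and cannot show that the deposited ratios arose by these steps. The signals keep the deposited array scaling, multiplied by the mean factor of 99.0.

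The platform annotation gave 1 gene for 34945 probe sets, several for 932 and none for 9160. DRG and SC were compared on log2(signal + 16) with limma 3.58.1 under R 4.3.3, by lmFit and eBayes with an intensity trend. Tests were two-sided, p-values were adjusted after Benjamini and Hochberg over 45028 probe sets, and a call was set at an adjusted p under 0.05. A gene was read from its probe set of highest mean log2 signal. Within-array ratios were tested by exact permutation in scipy 1.17.1. Promoter windows are RefSeq's on GRCm38.p6. The number of arrays, 3 per tissue, limits the precision, and the labels give no batch. Pearson's r between arrays over probe sets was 0.966 to 0.970 in DRG, 0.966 to 0.969 in SC and 0.891 to 0.898 across tissues.

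The members, the classes and the lists of partner and marker genes were chosen with earlier results of these data known. By rule, called collagen genes with a log2 difference of at least 1 were given array by array, at most 5 in each direction of a class, with at most 3 called genes in each direction of a partner list and 2 genes of a marker list. Mia3, the means of Pmp22 and the perineurial genes, and the array values of other collagen genes fall outside the rule. They were chosen after their values were seen. Alternatives varied the scaling, the pseudocount, the filter on dim probe sets, the choice of probe set, the variance model, the replicate block and the arrays included.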

Additional observations from a re-analysis of the deposited data

How the results depend on the processing

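Of the 24 called collagen genes, 19 kept call and direction under each of the 17 alternatives that could be run for them, 5 lost the call under some (Col5a1, Col11a1, Col12a1, Col16a1 and Col18a1) and 0 reversed. Of the 18 genes not called, 5 were called under some (Col2a1, Col4a3, Col4a4, Col6a5 and Col27a1). Counts toward DRG ran from 16 to 21 genes, and counts toward SC from 4 to 7. Leaving out 1 array gave 17 to 20 collagen genes toward DRG and 4 to 5 toward SC, 28 to 31 and 6 to 8 probe sets, 19 to 21 and 3 to 4 partner genes, 6 to 7 and 1 to 2 fibrillar genes, 2 to 3 and 1 type IV genes, and 9 to 10 and 2 other collagen genes. The fibrillar count toward SC was 1 in place of 2 without DRG replicate 2, SC replicate 1 or SC replicate 3. Before the array scaling, 12 probe sets in place of 7 and 2 type IV genes in place of 1 were higher in SC. Among probe sets above the median signal, 4 of 39 collagen probe sets and 1 of 14 other collagen genes were higher in SC, a filter that tests fewer of them. When probe sets of a gene were averaged, 3 partner genes and 1 fibrillar gene were higher in SC, and Mia3, higher in DRG at 0.56, turned to −0.13 (limma adjusted p = 0.701). The fibrillar count toward SC was also 1 with the logarithm of the deposited ratio and without the intensity trend, and the cause was not tested. Equal replicate numbers did not pair the arrays: deviations from the tissue means correlated at 0.01, −0.01 and 0.06 for numbers 1, 2 and 3, and 2 of 6 arrays correlated best with their own number. The replicate block gave 21 collagen genes toward DRG and 5 toward SC, with Col4a4 (limma adjusted p = 0.0484) and Col6a5 (0.0332) added, while the partner gene P3h3 was not called (0.0897). Genes under the background level are limited by signal over background.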
